A study of Mus musculus with 3 samples.

Results

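The cells described here are those of cluster 0 of the authors' clustering of naive mouse brains, the largest of 10 clusters, taken as microglia. The deposited cell annotation puts 1320 cells in it. Of these, 86 carried a cell barcode that also stands in the table of metastasis-bearing brains and were left out, 85 of them filed there under cluster 3, so 1234 cells were used of 2736 used naive cells and 11179 used cells in the whole series. The 86 cells had a median of 1816.5 antibody UMIs against 1083 in the cells kept, a UMI being one barcoded molecule. Whether they held more than 1 cell was not tested.

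All mice were C57Bl/6 females aged 2 to 3 months, and each sample was 1 brain hemisphere, perfused with PBS, digested with enzymes and enriched for immune cells on a Percoll gradient. The 4 naive brains, which received no tumour cells, were Cx3cr1+/- (heterozygous, 2 brains) or Cx3cr1-/- (homozygous, 2 brains). Every brain therefore lacked at least 1 copy of Cx3cr1, a chemokine receptor whose ligand is the neuronal protein fractalkine, and no wild-type brain was in the design. Each brain was stained with 35 antibodies and with a hashtag of its own, and 8 brains were then pooled for 1 droplet capture (10x Genomics 3 prime chemistry), so that all cells share their libraries. Each brain is its own sample, but the p-values below rest on 2 against 2 brains of 1 capture.

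Microglia are the resident macrophages of the brain. They derive from yolk sac progenitors, renew themselves in place, survive on signals through the receptor Csf1r and keep their identity under TGF-beta and the transcription factor Sall1. Healthy microglia sense nucleotides through purinergic receptors such as P2ry12 and P2ry13, and carry Tmem119 and complement C1q as common markers. Enzymatic digestion at body temperature is known to induce immediate-early genes and chemokines in them.

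A cell was given to a brain by its hashtag and to a surface gate by its antibody tags, each a synthetic DNA barcode of 15 bases read beside the cell's RNA. The tags of the 4 naive brains and of CD45 and CD11b, whose surface levels define the gate for microglia, are shown because all that follows rests on them.
M-HTO-1 (heterozygous brain 1): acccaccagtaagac
M-HTO-2 (heterozygous brain 2): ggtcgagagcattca
M-HTO-5 (homozygous brain 1): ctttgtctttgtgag
M-HTO-6 (homozygous brain 2): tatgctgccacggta
CD45: tggctatggagcaga
CD11b: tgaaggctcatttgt
The hashtags of the 4 naive brains differ from each other at 11 to 14 of the 15 positions.

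The brains gave 495, 227, 147 and 365 cells, in the order heterozygous brain 1, heterozygous brain 2, homozygous brain 1 and homozygous brain 2, which is kept for every set of 4 values below. Median raw UMIs per cell were 6884, 7366, 7310 and 7522, and median genes per cell 2400 to 2501. Mitochondrial genes made up a median of 2.24 to 2.53% of a cell's corrected UMIs. Depth and mitochondrial share thus differed little between brains. Cluster 0 made up 51.7, 42.3, 43.6 and 40.3% of the used naive cells of the brains, and the genotypes overlapped in this share. Expression is given as CPM (counts per 1000000) of the authors' depth-corrected UMIs, summed over the cells of a brain, and a mean ± SD is over the 4 brains (n = 4) unless stated.

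Cluster 0 carried the full set of microglia markers. All 17 markers of the list were at their highest in cluster 0 among the 10 naive clusters, and 16 were at least 2-fold above every other cluster. The exception was Sall3, at 115 CPM against 107 in cluster 1. Since the cells were clustered on these same RNA values, this describes the cluster and is no test of it.

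P2ry12, the ADP receptor that guides microglial processes to injury, was at 2104, 2083, 1885 and 2006 CPM against 407 CPM in the next cluster, cluster 1. The 4 brains lay within a narrow band. P2ry13, a second receptor for ADP, was at 415, 396, 365 and 370 CPM, against 91.3 CPM in cluster 5. Slc2a5, a fructose transporter, was at 278, 256, 235 and 229 CPM, against 38.0 CPM in cluster 5. Neither of the 2 differed much between brains. Crybb1, a lens crystallin gene also used as a microglia marker, was at 388, 428, 314 and 317 CPM against 57.9 CPM in cluster 7, with both homozygous brains below both heterozygous brains. Cx3cr1, the deleted gene, was at 1953 and 1852 CPM in the heterozygous and at 75.6 and 71.4 CPM in the homozygous brains. As a marker it therefore describes heterozygous cells only. By the mean over brains, cluster 1 was next for Cx3cr1, at 280 CPM. Within the homozygous brains the order was reversed, with the highest other cluster at 173 and 136 CPM, above cluster 0. Cluster 1 had a median of 1405 raw UMIs per cell against 7197 in cluster 0, and the part of this depth gap was not tested.

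**Figure D1:**
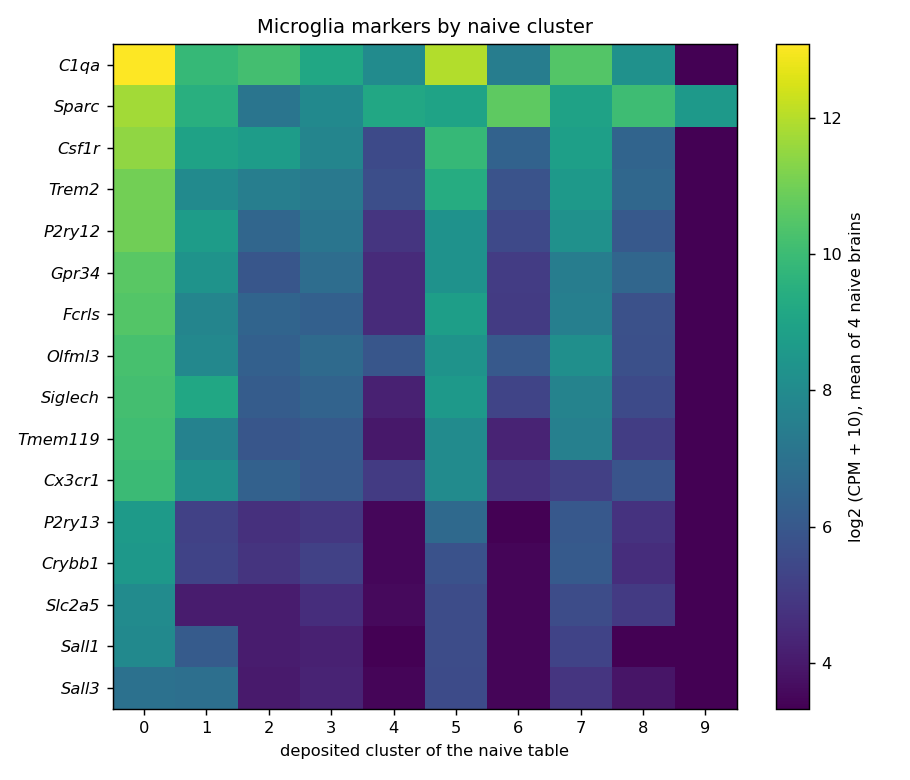
Levels of 16 of the 17 microglia markers (rows) in the 10 deposited naive clusters (columns), as colour on the scale log2 of CPM plus 10, mean over the 4 naive brains. The column of cluster 0 is the brightest for every marker shown, with P2ry12 at 2020 CPM on average against 407 CPM in cluster 1, and Sall3 is nearly level with cluster 1.

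By single cells, P2ry12 had a UMI in 99.9% of the 1234 cells (exact Clopper-Pearson 95% interval 99.5 to 100%, counting error only). In cluster 3, which carries T cell and NK cell markers and should lack the gene, 31.5% of cells had one, at a median of 5375.5 raw UMIs against 7197 in cluster 0. Tmem119, a surface protein of microglia, had a UMI in 98.6% of cells against 16.5% in cluster 3. P2ry13 was seen in 90.7%, Crybb1 in 80.1% and Slc2a5 in 77.1%, against 8.47, 10.1 and 6.45% in cluster 3. The markers thus stood well above the share found in cluster 3, but other clusters were closer. P2ry12 was seen in 92.8% of cells in cluster 1, 54.8% in cluster 5 and 68.8% in cluster 7, and Tmem119 in 91.5, 46.7 and 34.4%. P2ry13, Crybb1 and Slc2a5 were seen in 1.62 to 5.78% of cells in cluster 1 and in 14.1 to 31.9% in clusters 5 and 7. Cells of cluster 1 had a median of 1405 raw UMIs, corrected to 5613. Its shares, high or low, are therefore not at the raw depth of cluster 0, and the part of depth was not tested. At least 3 of the 5 markers P2ry12, Cx3cr1, Crybb1, Slc2a5 and P2ry13 were seen in 94.8% of cells, and in 89.2% after thinning every cell to 5000 corrected UMIs. In the other clusters the unthinned share was 0 to 24.4%. By brain it was 99.6, 98.2, 85.0 and 90.1%, lower in both homozygous brains, where Cx3cr1 is itself 1 of the 5.

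A rule of size picked the genes that set cluster 0 apart most: of 2870 genes above 50 CPM, 11 were at least 4-fold and 98 at least 2-fold above every other naive cluster. Cluster 1 was a cluster of 554 cells with a median of 1405 raw UMIs and 9.85% mitochondrial UMIs, 86.1% of which lay in the surface microglia gate. Without cluster 1 the counts were 19 and 176. Without heterozygous brain 2, 6 genes reached 4-fold. One of the 11, the haemoglobin gene Hbb-bs, was at 0.809, 498, 0 and 1.43 CPM, and a single cell of heterozygous brain 2 held all 863 of that brain's Hbb-bs UMIs. Its level thus rests on 1 cell. Among the other 10 were Crybb1, Slc2a5, Gpr84, P2ry12, Gpr34, Syngr1, Golm1, Cst3 and Tmem119.

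Their functions include sensing and secretion. Gpr34, a lysophosphatidylserine receptor, was at 1689, 1688, 1398 and 1379 CPM against 316 CPM in cluster 1. Gpr84, a receptor for medium-chain fatty acids, was at 388, 354, 462 and 531 CPM against 75.7 CPM in cluster 1. Both homozygous brains lay below both heterozygous brains for Gpr34 and above them for Gpr84. Cst3, the secreted protease inhibitor cystatin C, was at 60559, 62944, 54289 and 54613 CPM against 14113 CPM in cluster 5. Tmem119 was at 1034, 1064, 1042 and 1161 CPM against 254 CPM in cluster 5, without separation of the genotypes. The next 9 by this rule were P2ry13, Ctsd, Olfml3, Sall1, Lrrc3, Cx3cr1, Lag3, Upk1b and Cryba4. Sall1, the transcription factor that holds microglial identity, was at 256, 250, 215 and 224 CPM against 59.9 CPM in cluster 1. Ctsd, the lysosomal protease cathepsin D, was at 7422, 6632, 6331 and 6110 CPM against 1695 CPM in cluster 5.

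**Figure D2:**
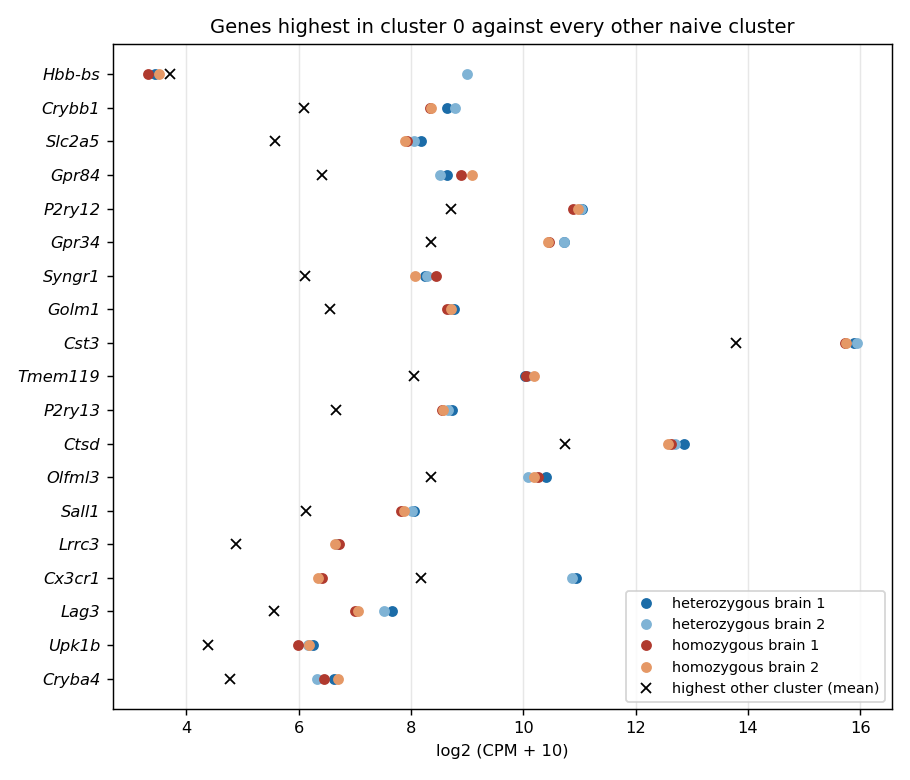
Level in each naive brain (coloured points) of 19 of the 20 genes that set cluster 0 apart most, as log2 of CPM plus 10, with the mean of the highest other cluster as a cross. Most genes sit at nearly the same level in the 4 brains, while Cx3cr1 drops from 1953 and 1852 CPM to 75.6 and 71.4 CPM and Hbb-bs is high, at 498 CPM, in heterozygous brain 2.

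Other gene groups were less particular to cluster 0. Of 35 genes of homeostatic microglia, all 35 were above 100 CPM, 32 were at their highest in cluster 0 and 25 were at least 2-fold above every other cluster. Of 17 complement genes, 6 were highest there, and C1qa, C1qb and C1qc, the chains of C1q, were at 8716 ± 391, 8251 ± 366 and 5607 ± 262 CPM, against 4042, 3968 and 2555 CPM in cluster 5. The survival receptor Csf1r was at 2811 ± 55.6 CPM and the lipid-sensing receptor Trem2 at 2043 ± 180 CPM, each next in cluster 5 at 933 and 659 CPM. Of 25 lysosome and cathepsin genes, 15 were highest in cluster 0, among them the protease Lgmn at 2955 ± 82.8 CPM. Broad myeloid genes were not: the adaptor Tyrobp was at 2503 ± 125 CPM against 3326 in cluster 2, and the transcription factor Spi1 (PU.1) at 433 ± 16.3 CPM against 719 in cluster 2. None of the 26 immediate-early genes was 2-fold above every other cluster. Fos was at 9210, 8208, 8772 and 8818 CPM, and Jun at 12698, 10537, 11638 and 11808 CPM against 13681 CPM in cluster 1. The summed CPM of that list was 67884 to 77311 in the brains and 66755 in cluster 1. Whether the digestion induced them was not tested.

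The cluster most like cluster 0 over 12525 genes was cluster 5 (Pearson r of log2 levels 0.903 across genes, which share libraries and are not replicates), followed by cluster 1 at 0.891. Cluster 5, with markers of border-associated macrophages and dendritic cells, had much more antigen presentation. The MHC class II genes H2-Eb1, H2-Aa and H2-Ab1 were at 15.2, 20.4 and 28.3 CPM in cluster 0 and at 6810, 7887 and 7496 CPM in cluster 5. Cd74, the chain that escorts MHC class II, was at 75.8 against 21560 CPM. The other genes furthest below cluster 5 were Ly6d, Cybb, Cd209a, Mgl2, Pf4 and Plbd1. Cybb, the catalytic subunit of the phagocyte oxidase, was at 12.9 against 692 CPM, and the macrophage chemokine Pf4 at 11.3 against 598 CPM. Apoe, the lipid carrier, was at 703, 846, 700 and 1033 CPM in cluster 0 and at 19049 CPM in cluster 5. Its mean over the brains hides a wide range over cells, described further on.

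Markers of other cell types were low. Summed per brain, the 8 markers of border-associated macrophages ranged over the brains from 17 to 76.5 CPM (1449 in cluster 5), 6 of monocytes from 33.5 to 47.2 CPM and 5 of T cells from 4.64 to 12.5 CPM. Those of NK cells ranged from 7.12 to 7.82 CPM, of dendritic cells from 0.890 to 9.64 CPM and of endothelial cells from 16.9 to 38.3 CPM. Mural cell markers lay at 4.85 to 8.92 CPM, astrocyte markers at 2.67 to 7.50 CPM, oligodendrocyte markers at 46.3 to 53.6 CPM and neuron markers at 0.890 to 4.31 CPM. Epithelial tumour markers were at 18.6 to 28.3 CPM and proliferation markers at 41.5 to 58.5 CPM. Some of the lists were carried by 1 gene. Csf3r was at 177 ± 15.1 CPM of the 183 to 266 CPM of the neutrophil list, Ighm at 201 ± 20.6 CPM of the 202 to 252 CPM of the B cell list, and Ttr at 176 ± 14.2 CPM of the 175 to 208 CPM of the choroid plexus list. Haemoglobins made up the erythroid list, at 0.809, 677, 0.890 and 4.28 CPM. Cd79a of B cells, Klrb1c of NK cells and Syt1 of neurons had 0 UMIs in the 1234 cells, which allows a share of cells with a UMI of up to 0.243%.

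The surface antibodies gave an independent readout of these cells. In the authors' gates, 1204 of the 1234 cells (97.6%, exact 95% interval 96.5 to 98.4%) were low in CD45 and positive for CD11b. Of the 1234, 1179 (95.5%, 94.2 to 96.6%) lay in the microglia gate, 25 in the gate for border-associated macrophages and 30 in neither. By brain, 97.6, 95.2, 91.8 and 94.5% lay in the microglia gate. Both homozygous brains were lower, by 3.19 percentage points on average, with p = 0.333 in a two-sided exact permutation test, the smallest p that 2 against 2 brains allow. Seen from the gate, cluster 0 held 68.7 to 72.5% of a brain's microglia-gated cells and cluster 1 another 25.2 to 30.1%. The 25 cells in the macrophage gate still had P2ry12 at 1806 CPM, against 2061 CPM in the 1179 microglia-gated cells, with Pf4 at 113 against 1.12 CPM and Apoe at 3110 against 723 CPM. Both sets of transcripts were thus present in the summed RNA of these 25 cells. P2ry12 had a UMI in 100% of them but Pf4 in 12%, with 22 UMIs in all, so the Pf4 level rests on few cells.

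The cells of cluster 0 differed from each other most in chemokines, in Apoe and in a set of inducible genes. Spread was measured within each brain as the squared coefficient of variation (CV) of a gene's corrected UMIs over cells. It is given as the log2 difference from the running median of genes with a like mean, averaged over the 4 brains, so that 1 stands for a squared CV 2-fold that of such genes. Of 2210 genes with a mean of at least 0.5 UMI per cell, 95 (4.30%) had an excess above 1, and the median was -0.01. The brains gave much the same picture, with pairwise Pearson r of 0.858 to 0.924 across genes. Of the 20 genes with the largest excess, 11 were among the top 20 of every brain and 17 of at least 3. The genes were chosen by these values, so what follows describes them.

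**Figure D3:**
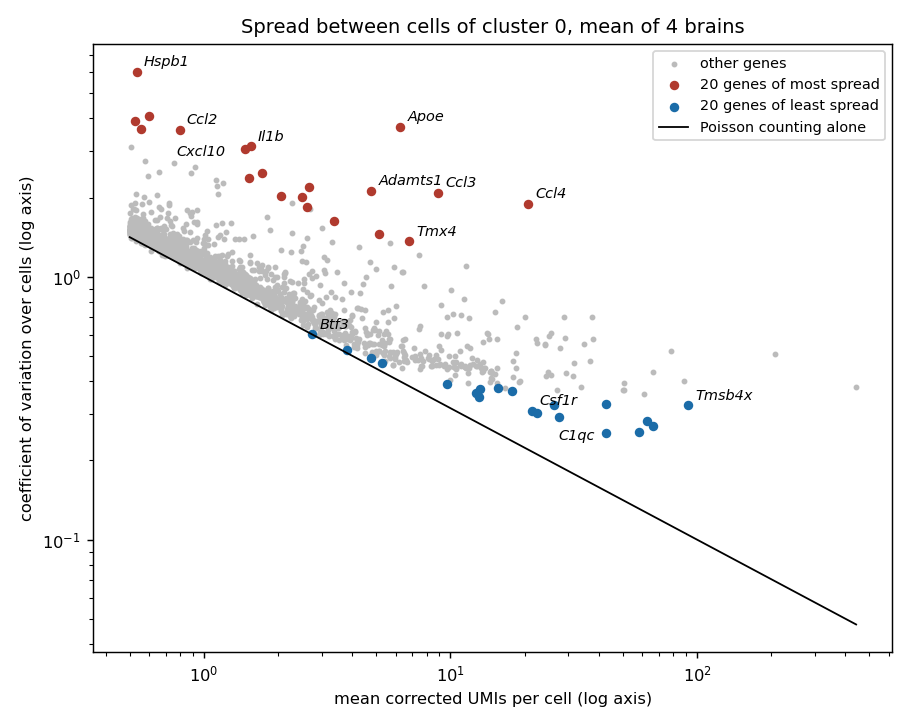
Coefficient of variation over the cells of cluster 0 against mean corrected UMIs per cell, both on log axes, mean of the 4 brains, for 2210 genes (points); the line is Poisson counting alone. The 20 genes of most spread, in red, lie far above genes of a like mean, with Apoe at a CV of 3.73, and the 20 of least spread, in blue, lie below, with C1qc at 0.255.

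Apoe had the largest excess, 5.59. Its mean was 6.25 UMIs per cell, its median 1 and its highest cell 402. The CV was 4.03, 3.30, 3.60 and 3.97 in the brains (3.73 ± 0.341), against 0.400 for Poisson counts of that mean. A UMI was found in 57.3% of cells, and the 10% of cells with most Apoe held 77.5% of its UMIs. Few cells thus carried most of the transcript in every brain. Ccl3 and Ccl4, inflammatory chemokines, had an excess of 4.17 each. Ccl4 had a mean of 20.7 UMIs, a median of 3 and a highest cell of 352, and its top 10% of cells held 57.5% of the UMIs. The CV of Ccl4 was 1.89, 1.85, 2.02 and 1.81. Hspb1, a small heat shock protein, was seen in 6.89% of cells, with an excess of 4.03. Adamts1, an extracellular protease, was seen in 36.1% of cells with an excess of 3.69. Hspb1 and Adamts1 thus had no UMI in most cells, unlike Apoe and Ccl4.

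Cytokines and other chemokines followed. Il1b, the inflammasome-processed interleukin, had an excess of 3.51 and a UMI in 31.0% of cells. Cxcl10, a ligand of Cxcr3, had 3.35 and 29.4%. The chemokines Cxcl2, Ccl2 and Ccl12 had 3.09, 3.01 and 3.00. Ccl12 had a CV of 1.99, 1.76, 1.72 and 3.30, highest in homozygous brain 2. The rest of the top 20, at 2.99 down to 2.56, included Otud1, Rgs1, Tmx4, Cdkn1a, Sgk1, Tcim, Dnajb1, Cited2 and Mt1. Among them are the cell cycle inhibitor Cdkn1a, the glucocorticoid-induced kinase Sgk1, the co-chaperone Dnajb1 and the metallothionein Mt1. Just outside lay Klf4 at 2.56, Id2 at 2.54 and Tnf at 2.52.

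By list, 9 chemokines were measured for spread and their median excess was 3.01, with 7 above 1, against -0.01 and 4.30% over all genes. The 16 measured genes of cytokines and NF-kappaB targets had a median of 1.25 with 12 above 1, and the 20 immediate-early genes a median of 0.83 with 9 above 1. Fos and Jun themselves had 0.04 and -0.19, near genes of a like mean, while Rgs1 had the highest value of that list, 2.80. The median was 0.64 for 14 genes of disease-associated microglia, 0.63 for 10 heat shock genes and 0.66 for 11 mitochondrially encoded genes. The 35 homeostatic genes lay near genes of a like mean, with a median of 0.06, 22 above 0 and 1 above 1, Gpr84 at 2.00, and the 24 lysosome genes a median of -0.14.

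The genes of least spread against genes of a like mean included the chains of C1q and 4 genes of the lysosome list. Counting noise limits how far genes of few UMIs can fall below that trend, so the rank favours genes of many UMIs. Against Poisson counts the order differs: Btf3, also among the lowest 20, had a CV of 0.603 against 0.603. C1qc had the lowest excess, -1.50, with a mean of 42.7 UMIs and a CV of 0.255 ± 0.0183, against 0.153 for Poisson counts. C1qa had -1.31 and C1qb -1.19, each with a CV under 0.30. Then came the membrane protein Itm2b at -1.15, the lysosomal protease Lgmn at -1.09 and the survival receptor Csf1r at -1.03. The remaining 13 of the lowest 20 were Eef1a1, Laptm5, Tmsb4x, Ctss, Serinc3, Ppia, Eif1, Marcks, Arpc1b, Btf3, Cdc42, Trem2 and Capza2, at -0.86 up to -0.52. P2ry12 and Tmem119 lay at -0.01 and 0.01, with CVs of 0.449 ± 0.0176 and 0.503 ± 0.0154. Of the other markers, Crybb1 had an excess of 0.88, Fcrls of 0.68 and Sall3 of 0.65, and a UMI was found in 80.1% of cells for Crybb1 and 47.3% for Sall3.

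**Figure D4:**
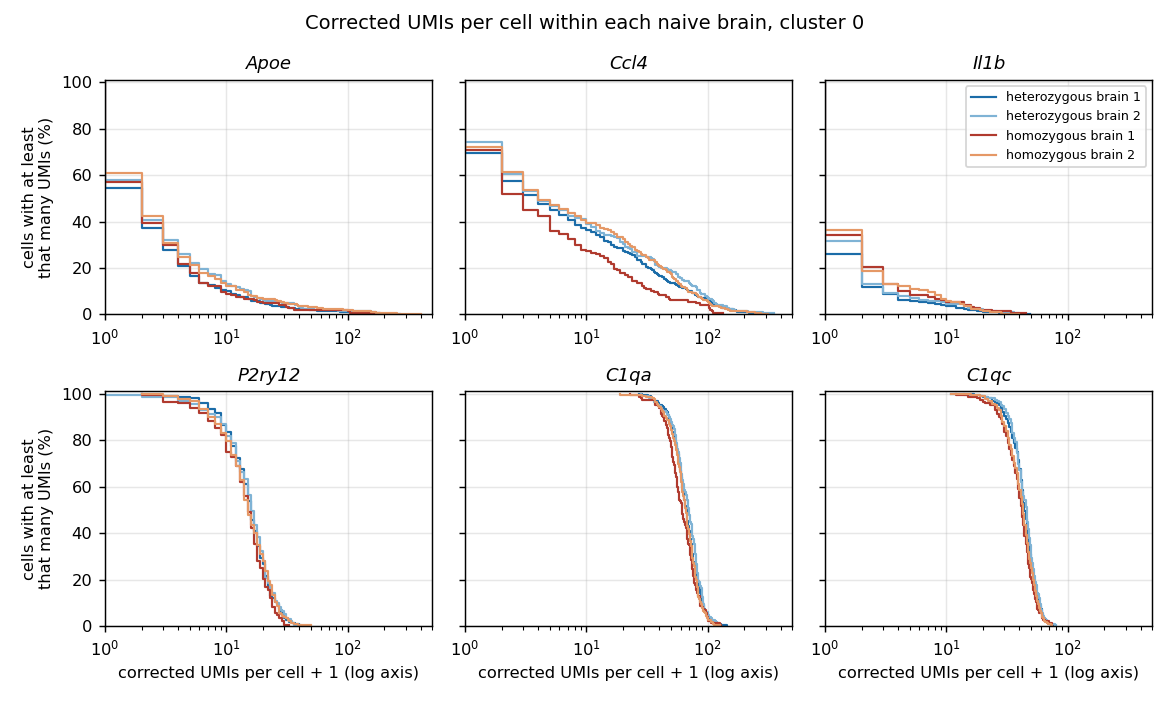
Share of the cells of each naive brain (lines, in percent) that hold at least a given number of corrected UMIs plus 1 (log axis), for Apoe, Ccl4, Il1b, P2ry12, C1qa and C1qc. The lines of Apoe, Ccl4 and Il1b start at 57.3, 71.2 and 31.0% of cells on average and fall slowly, while those of C1qa and C1qc stay near 100% and then drop steeply.

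The variable genes did not vary as 1 block. Over the 190 pairs of the top 20 genes, the median Pearson r of log2 UMIs within brains was 0.03 (1234 cells, which share libraries and depth). One pair stood above 0.3, Ccl3 with Ccl4, at a mean of 0.57 and 0.48 to 0.65 in the brains. Apoe had -0.08 to 0.08 with the other 19. Raw depth moved little with the corrected UMIs of these genes, at r of -0.07 to 0.15 with log raw UMIs, whereas Tmsb4x had 0.47. The correction itself evens out depth and lowers such an r, so the part of depth in the spread was not tested. In a principal component analysis of 500 genes, PC1 held 2.77% and PC2 2.09% of the variance. PC1 set mt-Cytb, mt-Co3, mt-Atp6 and other mitochondrial genes against Malat1, Btg2, Egr1, Ccnl1 and H3f3b, and followed a cell's mitochondrial share at r of 0.55 to 0.70. PC2 followed log raw UMIs at 0.53 to 0.64, with Dennd4a, Casp4, Tnfaip3 and Icam1 beside mitochondrial genes at its high end and S100a6, Ubb, Ctsb and Rsrp1 at its low end. The part of RNA quality and depth in these components was not tested. PC3, at 1.86% and described after its genes were seen, set the immediate-early and NF-kappaB genes Ier2, Cd83, Nfkbia and Atf3 against Rsrp1, Maf, Gpr34 and Slc2a5.

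The 10% of cells with most Apoe in their brain (125 cells) began at 8 to 15 UMIs, and 51 cells lay within 20% of that limit. They are a range of 1 gene's level, and whether they hold a separate cell type was not tested. Their mean Apoe was 6204 CPM against 204 CPM in the rest. Lyz2, the macrophage lysozyme, was at 731 ± 102 against 284 ± 64.6 CPM and the protease Ctsb at 1617 ± 209 against 1130 ± 69.5 CPM, each higher in 4 of 4 brains. P2ry12 was lower in 4 of 4 brains, at 1664 ± 170 against 2061 ± 122 CPM. Pf4 and Mrc1, markers of other macrophages, were higher in the Apoe-high cells in 4 of 4 brains. Only 13 of all 1234 cells had a UMI of Pf4 and 40 a UMI of Mrc1, so their levels rest on few cells. Pf4 was at 104 ± 105 against 0.809 ± 0.359 CPM and Mrc1 at 61.6 ± 47.5 against 3.89 ± 1.41 CPM. A marker of border-associated macrophages was seen in 12% of the Apoe-high and 6.40% of the other cells, and 88.0 against 96.4% lay in the microglia gate. Median raw UMIs were 7800 against 7159. The excess of Apoe was 5.41 in microglia-gated cells alone and 5.36 in the 1148 cells without a UMI of any such marker. Such markers are missed in many cells: even in cluster 5, Mrc1 had a UMI in 57.8% and Pf4 in 40.7% of cells. The part of such macrophages in the spread was not tested.

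The 125 cells with most Ccl4 began at 35 to 86 UMIs, with 71 cells within 20% of that limit. They had Ccl4 at 15065 against 1312 CPM, Ccl3 at 5165 ± 1606 against 716 ± 140 CPM, Il1b at 385 ± 125 against 182 ± 36.1 CPM and Tnf at 770 ± 437 against 305 ± 95.2 CPM, each higher in 4 of 4 brains. Of the microglia markers, P2ry12, Tmem119 and Csf1r were lower in 4 of 4 brains. Others were not: Cx3cr1 and Trem2 were each higher in 2 of 4 brains and C1qa in 1 of 4. P2ry12 was at 1517 ± 169 against 2077 ± 94.4 CPM, Tmem119 at 806 ± 153 against 1106 ± 61.2 CPM and Csf1r at 2333 ± 159 against 2866 ± 58.8 CPM. The sum of the immediate-early list was 72282 ± 4065 CPM against 74784 ± 4605 CPM, lower in 4 of 4 brains. The gap was small in heterozygous brain 2 (67778 against 67896 CPM) and homozygous brain 2 (76810 against 77369 CPM). Egr1 of that list was higher in 3 of 4 brains. That of heat shock genes was 6162 ± 395 against 5589 ± 198 CPM and that of the cycling list 1306 ± 136 against 831 ± 40.4 CPM, both higher in 4 of 4. Of the 18 cycling genes, only Hmgb2 and Tubb5 had a mean of at least 0.5 UMI per cell, at 3.07 and 2.12. The sum thus rests largely on these 2 genes, and whether the cells divide was not tested. Mitochondrially encoded genes summed to 21904 ± 2062 against 25304 ± 1587 CPM, lower in 4 of 4 brains, and their part in these differences was not tested. Pf4 and Ms4a7, markers of other macrophages, were at 0 in the Ccl4-high cells, and 97.6% of these cells lay in the microglia gate. Only 13 and 37 of all 1234 cells had a UMI of Pf4 and Ms4a7, so a 0 among 125 cells says little. Mrc1 was at 2.80 ± 4.03 against 10.6 ± 6.21 CPM. Any marker of border-associated macrophages was seen in 1.6% of the Ccl4-high and 7.57% of the other cells. Apoe was at 506 ± 185 against 857 ± 167 CPM.

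Promoters are shown for genes from both ends of the spread and for 2 identity genes, as the 120 bases before the RefSeq start (GRCm38.p6, the same assembly as mm10), 5′ to 3′ on the gene's strand. Capitals mark matches to the motifs searched: TATAAA from 40 to 20 bases before the start on the gene's strand, and 5 motifs on both strands over the 250 bases before it. These were AGGAAGT (PU.1), TGANTCA (AP-1), GGG and TTCC with any 3 bases between them (kappaB), GAAA and GAAA with any 2 bases between (interferon response), and GAA and TTC with any 2 bases between (heat shock).
Ccl3, chr11:83649379-83649498, minus strand: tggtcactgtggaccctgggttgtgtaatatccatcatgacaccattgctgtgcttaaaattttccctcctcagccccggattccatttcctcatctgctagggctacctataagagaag
Il1b, chr2:129371140-129371259, minus strand: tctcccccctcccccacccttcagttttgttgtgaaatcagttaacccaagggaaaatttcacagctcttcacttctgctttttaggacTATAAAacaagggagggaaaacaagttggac
Cxcl10, chr5:92348890-92349009, minus strand: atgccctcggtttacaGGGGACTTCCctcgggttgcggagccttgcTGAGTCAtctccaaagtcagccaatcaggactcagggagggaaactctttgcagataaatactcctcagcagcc
Hspb1, chr5:135887799-135887918, plus strand: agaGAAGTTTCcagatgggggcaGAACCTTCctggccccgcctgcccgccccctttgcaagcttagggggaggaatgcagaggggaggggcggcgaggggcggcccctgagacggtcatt
C1qb, chr4:136886201-136886320, minus strand: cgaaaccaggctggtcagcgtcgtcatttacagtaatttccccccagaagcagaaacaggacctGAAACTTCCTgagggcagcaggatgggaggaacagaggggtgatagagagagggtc
C1qc, chr4:136892915-136893034, minus strand: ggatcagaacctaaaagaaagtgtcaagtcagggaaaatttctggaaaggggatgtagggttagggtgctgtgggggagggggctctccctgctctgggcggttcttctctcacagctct
P2ry12, chr3:59262986-59263105, minus strand: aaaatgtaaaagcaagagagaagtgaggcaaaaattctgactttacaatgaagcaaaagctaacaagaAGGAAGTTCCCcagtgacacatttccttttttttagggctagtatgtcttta
Crybb1, chr5:112255700-112255819, plus strand: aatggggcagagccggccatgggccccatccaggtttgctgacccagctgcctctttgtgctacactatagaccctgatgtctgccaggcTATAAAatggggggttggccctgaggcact
In P2ry12 a kappaB and a PU.1 match overlap, and in C1qb a PU.1 and a heat shock match.

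Of the 20 genes of most spread, 15 matched the promoter table with 24 promoters. A TATAAA match lay in 4 of the 24 (16.7%; Adamts1, Ccl12, Il1b and Sgk1), in 1 of 18 promoters (5.56%; Ppia) of 16 matched genes of least spread, in 1.58% of the 2284 promoters of genes measured for spread and in 1.91% of all 32851. Heat shock matches lay in 3 of the 24, of Hspb1 and Sgk1 (12.5% against 5.34% of promoters of measured genes and 6.69% of all), and interferon matches in 2, of Cxcl10 and Sgk1 (8.33% against 2.80 and 2.98%). The kappaB letters lay in 2 of the 24, of Cxcl10 and Cxcl2, against 5.69% of measured genes. Among 13 promoters of 11 matched microglia markers, PU.1 letters lay in 3 (23.1%; Fcrls, P2ry12 and Sall1), against 8.58% of measured genes and 7.69% of all. In the genes of least spread they lay in 3 of 18, of Btf3, C1qb and C1qc, for C1qc outside the bases shown. A match to these letters is a description and shows no binding.

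The genotypes were compared within cluster 0, which asks what loss of the second copy of Cx3cr1 changes in naive microglia. Cx3cr1 itself, the check of the labels, had a UMI in 100 and 99.6% of heterozygous and in 30.6 and 35.6% of homozygous cells, at 14.6 and 14.2 against 1.89 and 1.54 UMIs per cell with a UMI. With every cell thinned to 5000 corrected UMIs the shares were 100 and 99.6% against 25.2 and 27.7%. The labels do not say which part of the gene is missing, and 3 prime reads can come from a transcript that makes no protein. In homozygous brains the share was 6.72% in the T and NK cell cluster, at a median of 5943 raw UMIs against 7457.5 in cluster 0. In cluster 1 it was 72.0%, at a median of only 1393 raw UMIs. The part of the depth correction in that share was not tested. The fold change was -4.52 (log2 of CPM plus 10, homozygous minus heterozygous; SE 0.08, limma, Benjamini-Hochberg adjusted p = 5.17e-27).

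Of 7693 genes tested, 31 rose (0.403% of those tested) and 13 fell (0.169%) in homozygous cells at an adjusted p under 0.05 by limma. In all 44, both homozygous brains lay on 1 side of both heterozygous brains. Genes called for a large difference against a small spread tend to separate in this way, so it adds no support to the calls. The median change of all genes was 0.03, and 655 genes had an unadjusted p under 0.05. These calls depend on the variance model: without its trend over the mean, 2 remained, Cx3cr1 and Tcim, which were also called in the other 12 alternatives. Without homozygous brain 1, 15 genes were called, 12 of them among the 44. Without homozygous brain 2, 17 of the 44 were among 35 calls, and without heterozygous brain 1 or 2, 30 of 57 and 31 of 53. The genes called whichever brain was left out were Cx3cr1, Tcim, Emp3, Tnf, Adamts1, Fcrls and Gm13889.

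The rises were led by Tcim, a regulator of transcription and growth, at 35.9, 43.3, 105 and 107 CPM (log2 change 1.23, SE 0.12, limma adjusted p = 3.28e-07). More cells carried it, 9.29 and 10.1% against 23.8 and 20.3%, with 1.21-fold more UMIs in those cells. After thinning to 5000 corrected UMIs the shares were 7.07, 9.69, 19.7 and 17.8%. Tnf, the inflammatory cytokine, was at 214, 294, 408 and 496 CPM (0.81, SE 0.11, adjusted p = 3.22e-05), seen in 48.1 and 49.8% against 58.5 and 71.8% of cells. Adamts1 was at 463, 486, 761 and 793 CPM (0.70, SE 0.08, adjusted p = 1.41e-06), with the share of cells up 1.49-fold and the UMIs per such cell 1.11-fold. Emp3, a small membrane protein, was at 68.5, 71.5, 134 and 135 CPM (0.85, SE 0.11, adjusted p = 2.07e-05). In each of these genes, as in all the calls, both homozygous brains stood clear of both heterozygous ones. Klf2, a transcription factor that restrains myeloid activation, was at 4313, 3596, 5889 and 5806 CPM (0.57, SE 0.08, adjusted p = 9.68e-05). Nearly every cell had it in both genotypes, 96.6 and 98.8% on average, and the rise lay in the UMIs per cell, 1.47-fold. Without homozygous brain 1 its adjusted p was 0.0981. Slc7a11, the cystine importer, rose the other way, with 2.61-fold more cells and 1.19-fold more UMIs in them. Tnf, Emp3 and Adamts1 lost their call in 1 alternative, that without the trend.

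The other large rises were less stable. Nr4a1, an immediate-early nuclear receptor, was at 111, 113, 147 and 227 CPM (0.66, adjusted p = 0.00546), and at 0.166 without homozygous brain 2. Gch1, the first enzyme of tetrahydrobiopterin synthesis, and Gpr65, a proton-sensing receptor, rose by 0.79 and 0.69 and lost the call without any 1 of the 4 brains, at adjusted p of 0.0508 to 0.167 and 0.0862 to 0.497. Slc7a11 lost it without heterozygous brain 1 (0.0820) or homozygous brain 1 (0.0861). The interferon-induced gene Ifi27l2a rose by 0.64 and kept its call without heterozygous brain 1 but in no other omission, at 0.0574 to 0.223.

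The falls after Cx3cr1 were smaller. Fcrls, an Fc receptor-like scavenger receptor of microglia, was at 1807, 1542, 1107 and 1133 CPM (-0.57, SE 0.08, limma adjusted p = 5.75e-05), in nearly as many cells, 99.1 against 96.0%, with 0.700-fold the UMIs. Gm13889 was at 95.5, 71.5, 9.79 and 42.8 CPM (-1.52, adjusted p = 0.000474), a wide gap between the homozygous brains. The checkpoint receptor Lag3 was at 192, 174, 117 and 123 CPM (-0.57, adjusted p = 0.00218; 0.0552 without homozygous brain 1). Clec4a3, a lectin, was at 97.3, 89.98, 48.0 and 68.9 CPM (-0.61, adjusted p = 0.0183), with 0.100 without heterozygous brain 1 and 0.366 without homozygous brain 1. Socs3, an inhibitor of cytokine signalling, Serpine2, a protease inhibitor, Zbtb20, Ccl9 and Cd63 fell by 0.38 to 0.51. Without homozygous brain 1 none of these 5 passed, at adjusted p of 0.0981 to 0.210. Without homozygous brain 2, Socs3 was at 0.134, Zbtb20 at 0.0508, Ccl9 at 0.0619 and Cd63 at 0.105. Without heterozygous brain 2, Zbtb20 was at 0.202, Ccl9 at 0.101 and Cd63 at 0.238, and without heterozygous brain 1 Ccl9 was at 0.287.

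**Figure D5:**
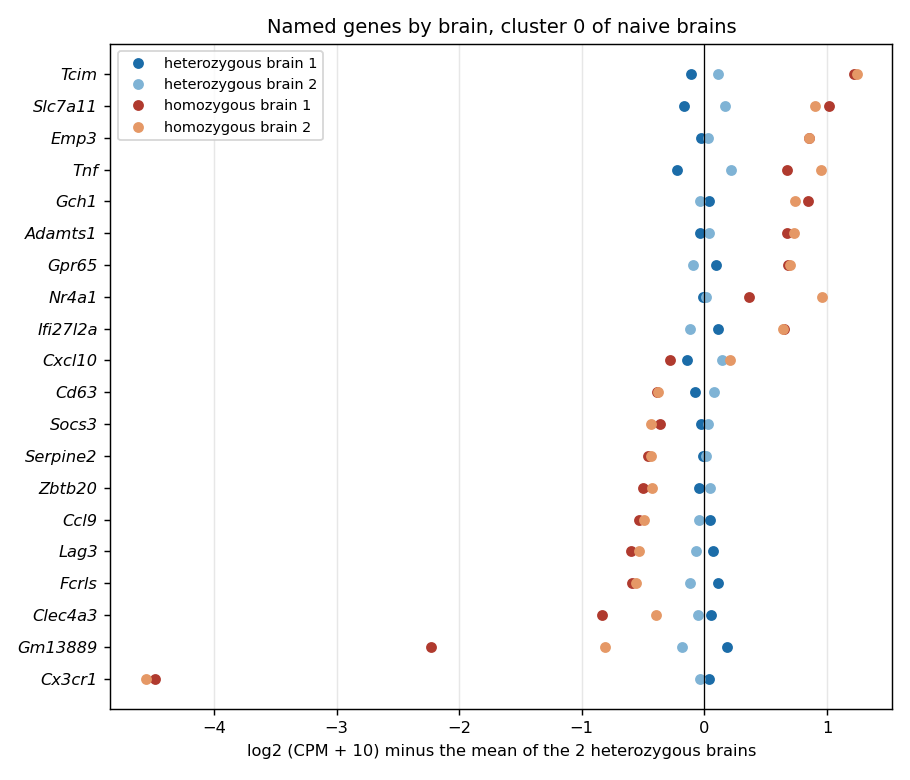
Level in each naive brain (coloured points) of Cx3cr1, Cxcl10 and genes among the largest rises and falls, as log2 of CPM plus 10 minus the mean of the 2 heterozygous brains. Both homozygous brains lie on 1 side of both heterozygous brains for every gene shown except Cxcl10, and the homozygous brains lie wide apart for Gm13889 (9.79 and 42.8 CPM). The rises and falls were picked from called genes, all of them without overlap of the genotypes.

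By group, the 22 tested genes of cytokines and NF-kappaB targets held 6 that rose (Tnf, Il1a, Il1b, Nlrp3, Cd14 and Bcl2a1b) and 0 that fell, with a median change of 0.20 against 0.03 over all genes. For every count in this paragraph, the share over all genes tested was 0.403% that rose and 0.169% that fell. Il1a was at 552, 692, 995 and 851 CPM and Il1b at 153, 188, 241 and 230 CPM. Nlrp3, the inflammasome sensor, was at 119, 152, 164 and 249 CPM. Tnf alone of the 6 kept its call in every omission of a brain by limma. Il1a lost it without homozygous brain 1 (adjusted p = 0.154), and Nlrp3 without heterozygous brain 1 (0.151) or homozygous brain 2 (0.373). Il1b (0.0688 to 0.366), Cd14 (0.145 to 0.365) and Bcl2a1b (0.0508 to 0.222) lost it in all omissions but that of heterozygous brain 2. The 25 immediate-early genes had 3 rises (Nr4a1, Klf2 and Klf6) and a median of 0.13, and the 25 myeloid transcription factors 3 (Cebpb, Klf2 and Nr4a1). Of 35 homeostatic genes 1 rose, Gpr84, and 5 fell, Cx3cr1, Crybb1, Fcrls, Lag3 and Ltc4s, with a median of -0.07. Gpr84 lost its call without heterozygous brain 2 (adjusted p = 0.0559) or homozygous brain 2 (0.184), and Ltc4s, the leukotriene C4 synthase, without homozygous brain 1 (0.222) or 2 (0.144). Without homozygous brain 1, Klf6 (0.167) and Cebpb (0.120) did not pass either, nor did Cebpb without homozygous brain 2 (0.203). The 11 chemokines had 0 rises and 1 fall, Ccl9, and a median of -0.29. Of 25 lysosome genes Ctsc and Ctsh rose and Cd63 fell. Ctsc (0.0775 to 0.437) and Ctsh (0.127 to 0.438) passed in no omission but that of heterozygous brain 1. MHC class II had 1 rise of 8, H2-DMa, lost without heterozygous brain 1 (0.0964) or homozygous brain 1 (0.462), and 24 interferon-stimulated genes had 1, Ifi27l2a. Complement (10 genes tested), phagocytosis receptors (14), heat shock (12), MHC class I (19), purinergic (8), lipid (13) and mitochondrial genes (13) had 0 calls either way by limma. The lists were chosen with results of these data known.

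Among the identity markers, Crybb1 fell by 0.36 (SE 0.08, limma adjusted p = 0.0357), a call kept without heterozygous brain 1 but lost without heterozygous brain 2 (0.337), homozygous brain 1 (0.263) or homozygous brain 2 (0.132). P2ry12 changed by -0.11 (SE 0.07, adjusted p = 0.752), P2ry13 by -0.14 (SE 0.08, 0.699), Slc2a5 by -0.19 (SE 0.09, 0.543) and Tmem119 by 0.07 (SE 0.08, 0.884), none past the threshold. Of the 20 genes of widest spread, 4 rose, Adamts1, Il1b and Tcim among them, against 0.403% of all genes tested, and the others did not pass it. Apoe changed by 0.14 (SE 0.11, adjusted p = 0.810), Ccl3 by -0.39 (SE 0.12, 0.219) and Ccl4 by -0.46 (SE 0.14, 0.207). Ccl4 was at 2839, 3340, 1614 and 3075 CPM, with homozygous brain 1 apart from the other 3. Cxcl10 was at 174, 213, 157 and 224 CPM, a change of -0.04 (SE 0.12, adjusted p = 0.966, and 0.313 to 0.9999 over the alternatives), whose sign turned in 4 of them. Marker sums of other macrophages were 17 and 31.7 CPM in heterozygous and 76.5 and 23.9 CPM in homozygous brains, and their part in these changes was not tested.

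Hbb-bs and Gm13889 differed most between brains of 1 genotype. Among genes above 50 CPM, the 10 with the largest SD within genotype on the log2 scale included Hbb-bs (2.78), Gm13889 (0.73), Ccl2 (0.53), Ccl12 (0.53), Ccl4 (0.48), Csf1 (0.45), Osm (0.45), Gm17056 (0.42) and Rrad (0.41), against a median of 0.12 over all genes tested. Homozygous brain 1 was the lowest for Ccl2 (96.5, 105, 66.7 and 149 CPM), Ccl12 (394, 375, 201 and 428 CPM) and Ccl4. Heterozygous brain 2 was the lowest for the growth factor Csf1, at 60.9, 29.4, 58.7 and 74.6 CPM. Other chemokines had a lower SD, at 0.05 for Ccl9, 0.13 for Ccl6 and 0.17 for Cxcl16.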

How the data were processed

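RNA, antibody and hashtag libraries were made from 1 pool of 8 brains, and the 4 naive brains were used. Per the submitters' processing notes, Cell Ranger 3.1 and Seurat 3.1.1 were run on mm10. The authors deposited the RNA as the natural log (ln) of 1 plus depth-corrected UMIs per gene and cell, and the log was undone; the result was whole in 100% of 9282424 nonzero values (tolerance 1e-06). The authors' deposited cell annotation gave plain counts of raw, antibody and hashtag UMIs and of genes, the total of corrected UMIs as a depth-corrected signal, the hashtag margin as a score, and the cluster, hashtag, genotype and surface gates. The deposited mitochondrial percent is 0 in every cell and was recomputed from 13 genes. The correction evens out depth, so raw depth is given beside it. All 3874 deposited naive cells are labelled singlets, and no other doublet call was made. Intervals cover counting error only.

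Corrected UMIs were summed per brain and scaled to 1000000 (CPM). Genotypes were compared with limma 3.58.1 in R 4.3.3 on log2 of CPM plus 10 over genes with a mean above 10 CPM, with a trend in the variance and Benjamini-Hochberg adjustment at 0.05, which replaces a count test because the values are not raw counts. Fold changes on this scale understate those of low genes. The exact permutation test is scipy 1.17.1's; other sums and figures used pandas 2.3.3, numpy 2.4.6 and matplotlib 3.10.9 under Python 3.11.15. The steps for the genotype comparison and for the spread were tested on simulated data. Promoters are RefSeq's.

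Named genes were the 5 markers, the members of the marker lists, the 20 genes with the largest ratio to the highest other cluster above 50 CPM, the 10 furthest below the most similar cluster, the 20 with most spread, the 10 at each end of 2 principal components, Cx3cr1, Cxcl10, Tnf, Fcrls, the 10 largest rises and falls called, the 10 with the largest SD within genotype, and up to 4 members of each pathway list by level. Genes of the lowest spread, of PC3 and other list members were named after their values were seen. Members and lists were chosen with earlier results of these data known. Alternatives were other pseudocounts, filters, fold limits and scalings, no variance trend, all deposited cells, cells of 5000 to 15000 raw UMIs, gated cells and leaving out each brain. Some genes that these rules pick are not reported here, though every fit, list sum and count holds them.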

Additional observations from a re-analysis of the deposited data

Results flagged for a closer look

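Of 65 values checked over the 4 brains, 2 had 1 brain far from the others by Dixon's test at the 95% level, where chance marks about 1 in 20. Hbb-bs was at 498 CPM in heterozygous brain 2 and at 0 to 1.43 CPM in the other 3 brains, and the summed erythroid markers were at 677 CPM there and at 0.809 to 4.28 CPM in the others. Both came from the same cell, which held 863 Hbb-bs, 167 Hba-a1 and 142 Hba-a2 UMIs.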

How the results depend on the processing

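Genes at least 4-fold above every other cluster (11) numbered 19 with a pseudocount of 1 CPM, 4 with 50 CPM, 6 with cells summed over brains, and 98 and 1 at limits of 2-fold and 8-fold; 19 without cluster 1, chosen after seeing the data; and 6 to 16 with 1 brain left out, 6 without heterozygous brain 2. No cluster had under 20 used cells, so that alternative equals the main setting. Genotype calls (44) numbered 23 with all deposited cells, 25 without a filter on low values, 2 without the variance trend, 25 with cells of 5000 to 15000 raw UMIs, and 15 to 57 with 1 brain left out, 15 without homozygous brain 1. They numbered 38 to 62 under the other alternatives. The cause was not tested. Cxcl10 changed sign with all deposited cells (0.072) and in microglia-gated cells (0.10), and ranged from -0.28 to 0.21 with 1 brain left out. Among named genes, 72 other values lost their call and 194 kept side and direction. Of the 20 genes of most spread, 15 to 20 stayed in the top 20 in every alternative, including gated cells and cells without macrophage markers (18 each), both chosen after seeing the data. The difference in the share of cluster 0 (-5.02 percentage points) ranged from -9.75 to -0.296 with 1 brain left out. No paired analysis was possible because brains carry hashtags and no replicate number shared between genotypes. With 2 brains a genotype, 147 to 495 cells a brain and 1 capture, small changes could not be detected.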

Other observations

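Of 27 measured genes of the list of disease-associated microglia, 11 were above 100 CPM in cluster 0, and 2 were higher there than in every other naive cluster, Ctsd and Trem2. Trem2, a lipid-sensing receptor, was at 2043 ± 180 CPM and the tetraspanin Cd9 at 986 ± 126 CPM. Others were low. Lpl, a lipoprotein lipase, was at 20.2, 23.1, 48.0 and 25.7 CPM, Cst7, an inhibitor of cathepsins, at 7.55, 2.88, 9.79 and 7.49 CPM, and Axl, a receptor for apoptotic cells, at 7.82, 5.19, 18.7 and 9.99 CPM. Homozygous brain 1 was the highest for all 3. Spp1, the secreted protein osteopontin, was at 10.3, 6.35, 8.01 and 27.8 CPM, highest in homozygous brain 2. Mertk, the related receptor of resting macrophages, was even, at 364 ± 13.9 CPM. Of 42 measured interferon-stimulated genes, 2 were above 100 CPM, Ly6e at 860, 844, 1082 and 939 CPM and Bst2 at 192 ± 16.9 CPM, and none was highest in cluster 0. Their sum was 1974 ± 166 CPM against 20009 CPM in cluster 2 and 323 CPM in cluster 9. Ifitm3, a barrier to virus entry, was at 85.1 ± 7.82 CPM against 3814 CPM in cluster 2, and H2-K1, an MHC class I heavy chain, was at 735 ± 55.4 CPM against 3359 CPM in cluster 3.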
